A study of Sus scrofa with 24 samples.

Results

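The genes of the proteasome were followed in pig embryos collected on day 30 of gestation and pooled, in 4 groups of treated pools that were each compared with control pools of the same sex. Genes were chosen by name alone: every array probe whose platform gene symbol begins with PSM, followed by a letter from A to G and a number, was taken, and several probes of 1 gene were averaged. This gave 72 of 43749 probes and 37 of 11902 gene symbols. One of them, PSMC3IP, matches the pattern only by its spelling and is a cofactor of meiotic recombination, so 36 genes on 71 probes are described. They comprise 12 genes of the core particle (PSMA and PSMB), 17 genes named for the regulatory particle (PSMC and PSMD) and 7 activators, inhibitors and assembly chaperones (PSME, PSMF and PSMG). Another 12 proteasome symbols of the reference table, PSMA2, PSMA7, PSMB1, PSMB2, PSMB3, PSMB5, PSMB10, PSMC4, PSMD2, PSMD7, PSMG1 and PSMG2, were not named by any probe and were not analysed here.

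The embryos came from primiparous sows, that is, sows after a single farrowing. Oestrus had been stimulated during lactation by intermittent suckling, and the sows were then mated by either of the strategies labelled IS21FE and IS21SE, whose letters the labels do not spell out. Sows of the Control group supplied the comparison pools. Each pool held 3 embryos of 1 sex from 1 sow, with 6 control sows and 3 sows of each strategy, so that each sex had 3 replicates under IS21FE and 3 under IS21SE. Every replicate was a treated and a control pool hybridised to 2 two-colour arrays with the dyes exchanged, and the labels count 24 pools, 1 of each kind per replicate. Since every sow gave a female and a male pool, the sexes of a strategy share sows. No sow is named for a pool, so which female and male pools share one is not known here, and no age of the sows is used.

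The proteasome is the large protease that degrades proteins tagged with ubiquitin. Its barrel-shaped core is built of outer rings of alpha subunits and inner rings of beta subunits, some of which carry the catalytic sites, and the regulatory particle that caps it recognises, unfolds and feeds in the substrates through a ring of ATPases and a set of non-ATPase subunits. Because the constitutive subunits are assembled into a fixed complex in nearly every cell, their messages are usually abundant, whereas a few subunits replace constitutive ones in immune cells, thymus or testis. Activators of the PSME family, the inhibitor PSMF1 and dedicated chaperones act on the core or on its assembly.

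Values are log2 ratios from the deposited table, averaged over the measured arrays of a replicate after arrays with control RNA in Cy5 were turned by -1. A positive ratio means more of the message in the treated pool if the table holds Cy5 over Cy3, which the table does not state and which is less certain for the female arrays. A ratio in a whole embryo pool cannot tell fewer cells of a type from less RNA per cell, and it holds no expression level, so markers of the embryo could not be checked for presence. Of all values 16.6% were blank, against 2.93% of the values of the proteasome probes, 61 of which were measured on all 24 arrays. The SD over probes was 0.620 to 0.890 for arrays of female pools and 0.937 to 1.33 for those of male pools, so the scale of the arrays goes together with sex. The fit shared 1 estimate of the spread over all groups, which makes p-values of the male groups less reliable. Precision is limited by the small number of arrays.

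The first question was whether any proteasome gene differed between treated and control embryos of a group. Ratios of the 36 genes were small, and none passed an adjusted p of 0.05 in any of the 4 groups in limma's moderated test with Benjamini-Hochberg adjustment over all genes. In female IS21FE 0 of 36 passed, where 0% of 11687 genes passed. In male IS21FE 0 of 36 passed, where 0.0263% of 11418 genes did. In female IS21SE and in male IS21SE 0 of 36 passed, where 0% of 11616 and 0% of 11510 genes did. At an unadjusted p under 0.05 the count was 2 in female IS21FE (PSMD11 negative, PSMG3 positive; 7.13% of all genes), 2 in male IS21FE (PSMA8 negative, PSMG4 positive; 7.58% of all genes), 0 in female IS21SE (4.06% of all genes) and 1 in male IS21SE (PSMG4 positive; 11.1% of all genes). The shares of the 36 genes were therefore no higher than the background of all genes.

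**Figure D1:**
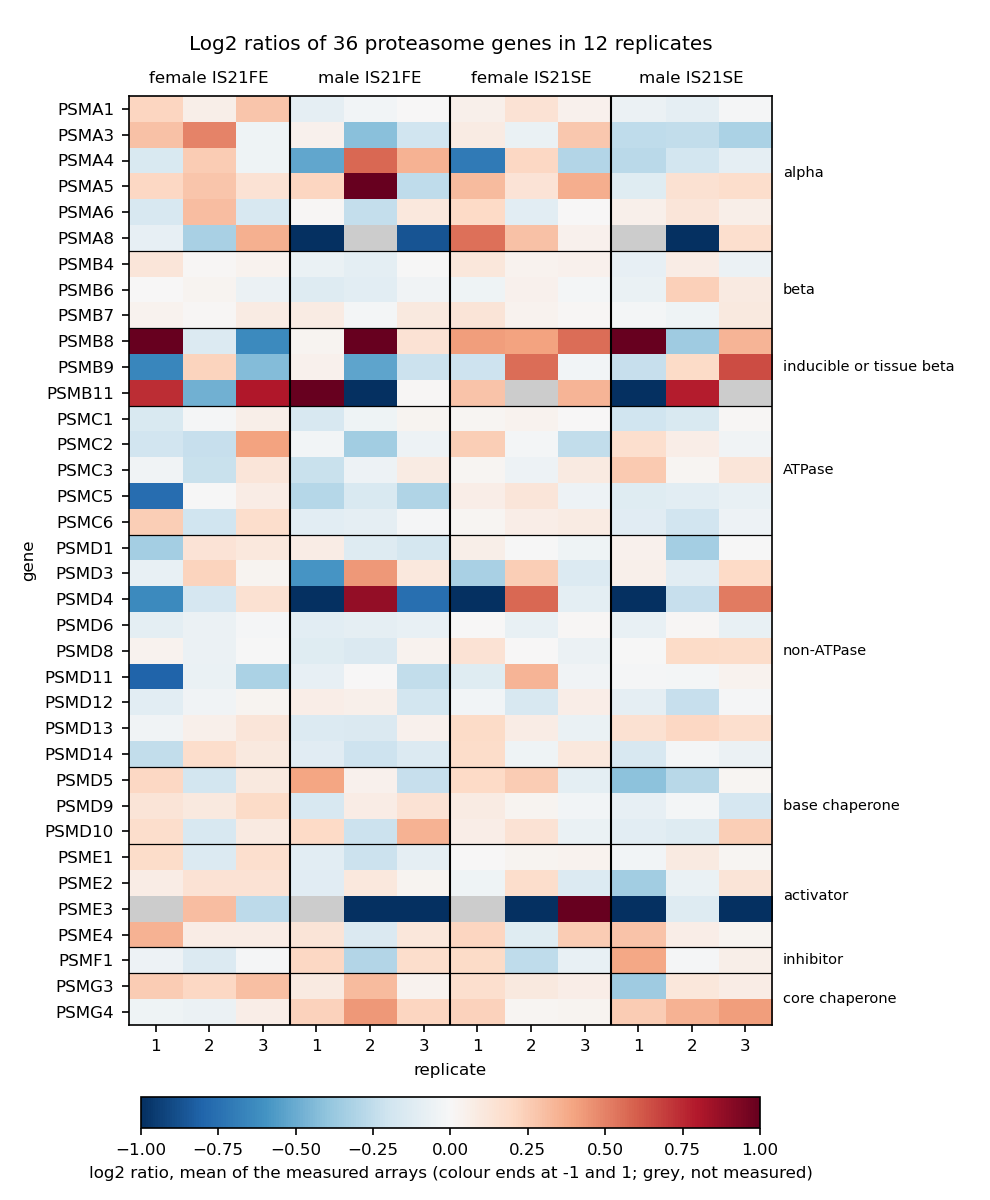
Log2 ratio of each of the 36 proteasome genes (vertical axis, ordered by role) in each of the 12 replicates (horizontal axis, 3 in each group), with red for positive, blue for negative and grey for not measured. Most cells are pale, and the deep colours gather in PSMA8, PSMB8, PSMB11, PSMD4 and PSME3, where replicates of 1 group often have opposite signs.

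After the turn, the bounds on the ratios were narrow for most of these genes. They are bounds on a treatment difference only if the turn is right, which the table does not state. They also follow averaging of 2 arrays that often disagreed: in female IS21FE the orientations gave the same sign for 11 of 35 genes. The mean ratio was closer to 0 than 0.25 for 32 of 36 genes in female IS21FE, 30 in male IS21FE, 30 in female IS21SE and 31 in male IS21SE, and for 24 genes in all 4 groups. Of all genes tested 62.9%, 62.3%, 67.5% and 57.2% were as close to 0 in the same order of groups. The 95% interval of the limma fit stayed within -1 and 1, that is within a 2-fold difference either way, for 33, 31, 32 and 31 of the 36 genes. Intervals that reached beyond it belonged to PSMB11, PSMD4 and PSME3 in every group, to PSMB8 in 3 groups and to PSMA8 in both male groups. The median half-width of the interval was 0.26 for the proteasome genes and 0.53 for all genes in female IS21FE, and it differed little between groups. Replicates scattered less than usual too: the median SD over 3 replicates was 0.17, 0.14, 0.11 and 0.11 for the proteasome genes, against 0.26, 0.35, 0.31 and 0.29 for all genes.

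**Figure D2:**
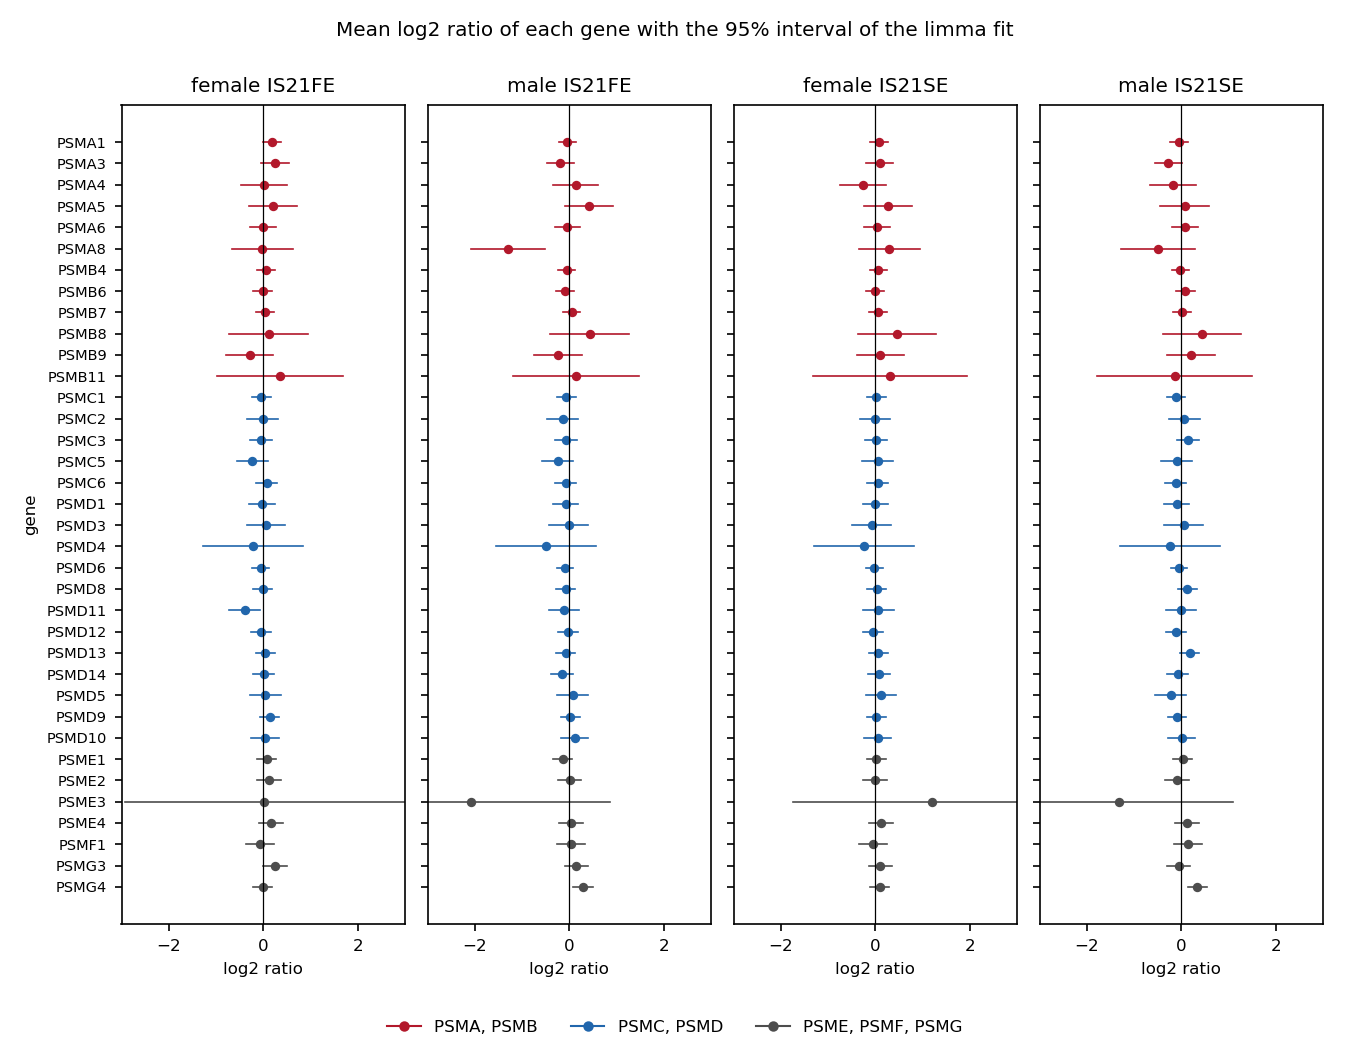
Mean log2 ratio (horizontal axis) of each proteasome gene (vertical axis) in each group, with points for means over 2 or 3 replicates and bars for the 95% interval of the limma fit. Points of most genes lie close to 0 with short bars, while the bars of PSMB11, PSMD4 and PSME3 reach past -1 or 1 in every group, and part of the PSME3 bar is outside the frame.

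The median ratio of the 36 genes was 0.022 in female IS21FE, -0.057 in male IS21FE, 0.052 in female IS21SE and -0.035 in male IS21SE, beside 0.0019, -0.015, 0.014 and -0.0090 over all genes tested. Positive mean ratios were counted in 20, 13, 27 and 16 of the 36 genes, that is in 55.6%, 36.1%, 75.0% and 44.4%, where 50.4%, 46.9%, 52.4% and 48.8% of all genes were positive. The female groups thus had more positive than negative members and the male groups fewer, and no test was made of these counts. Within female IS21FE the median over the family was -0.034, 0.0015 and 0.079 in the 3 replicates, and within male IS21SE it was -0.082, -0.022 and 0.032, so replicates of each of these groups lay on both sides of 0. All 3 replicates were negative in male IS21FE (-0.083, -0.091 and -0.0019) and positive in female IS21SE (0.081, 0.038 and 0.0068). Over all genes the medians of the same replicates were -0.043, -0.030 and 0.022 in male IS21FE and 0.0051, 0.022 and -0.0016 in female IS21SE.

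Genes with 1 sign in all 3 replicates of a group give another view of the same values. In female IS21FE 8 of 35 genes were positive in 3 of 3 replicates and 3 were negative, where 18.7% and 18% of all genes were. In male IS21FE 3 of 34 were positive and 8 negative, against 9.81% and 13.1% of all genes. Female IS21SE had 11 of 34 positive and 0 negative, against 13.8% and 11.3%, and male IS21SE had 5 of 34 positive and 9 negative, against 17.5% and 17.6%. These are counts over genes that share the same pools and arrays, and no test was made of them. No gene had 1 sign in all 12 replicates. PSMG3 was positive in 11 of 12, PSMA5, PSME4 and PSMG4 in 10 of 12, and PSMC5, PSMD6 and PSMD11 in 3 of 12.

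Among the alpha subunits, which form the outer rings and the gate of the core, 4 of 6 mean ratios were positive in female IS21FE, 2 in male IS21FE, 5 in female IS21SE and 2 in male IS21SE. PSMA1 had ratios of 0.22, 0.061 and 0.28 in the female IS21FE replicates, -0.092, -0.024 and 0.0018 in the male IS21FE replicates, 0.050, 0.14 and 0.046 in the female IS21SE replicates and -0.057, -0.092 and -0.0083 in the male IS21SE replicates. All 6 female replicates were positive and 5 of 6 male replicates were negative, and no replicate was farther from 0 than 0.28. The sign turned with the dye in both female groups, at -0.070 on arrays with treated RNA in Cy5 and 0.44 on the others in IS21FE, and at -0.25 and 0.41 in IS21SE. Of the 6 female arrays with treated RNA in Cy5, 5 were negative. The mean in female IS21FE was 0.19 ± 0.11 (SD, n = 3), with an interval of -0.0025 to 0.37 and an adjusted p of 0.706. The male minus female difference of PSMA1 was -0.22 for IS21FE (adjusted p = 0.818) and -0.13 for IS21SE (adjusted p = 0.853), neither of which passed. Its 2 probes gave means of 0.19 and 0.18 in female IS21FE, close to each other.

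PSMA3, another alpha subunit, had ratios of 0.30, 0.50 and -0.043 in the female IS21FE replicates, 0.046, -0.42 and -0.20 in the male IS21FE replicates, 0.081, -0.065 and 0.27 in the female IS21SE replicates and -0.25, -0.25 and -0.31 in the male IS21SE replicates. The 3 male IS21SE replicates were all negative and close together, with a mean of -0.27 ± 0.037 (SD, n = 3) and an adjusted p of 0.474. It was -0.44 on arrays with treated RNA in Cy5 and 0.11 on the others. That mean came from 1 of the 5 probes of the gene. The probe, which had a value on 16 of 24 arrays, gave group means of 0.78, -1.04, 0.49 and -1.57 in the female and male IS21FE and the female and male IS21SE groups. The other 4 probes gave 0.027 to 0.096 in male IS21SE, and with the median over probes in place of the mean the ratio there was 0.019. The male minus female difference of the gene in IS21FE was -0.44 (unadjusted p = 0.0363, adjusted p = 0.758), and this value includes the same probe.

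For PSMA5 the ratios were 0.21, 0.28 and 0.14 in the female IS21FE replicates, 0.21, 1.30 and -0.25 in the male IS21FE replicates, 0.32, 0.14 and 0.36 in the female IS21SE replicates and -0.12, 0.15 and 0.18 in the male IS21SE replicates. It was positive in 10 of 12 replicates, and the 6 female replicates lay between 0.14 and 0.36. In male IS21FE the 3 replicates disagreed, and the mean of 0.42 ± 0.80 (SD, n = 3) had an adjusted p of 0.762. Of its 4 probes, 1 gave 1.76 in that group and the others -0.062 to 0.045, so the male IS21FE mean also came from a single probe; with the median over probes it was -0.028. In the female groups the 4 probes agreed in sign, from 0.13 to 0.27 in female IS21FE and from 0.11 to 0.72 in female IS21SE.

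PSMA4 had ratios of -0.15, 0.25 and -0.040 in the female IS21FE replicates, -0.52, 0.58 and 0.35 in the male IS21FE replicates, -0.71, 0.21 and -0.29 in the female IS21SE replicates and -0.27, -0.18 and -0.089 in the male IS21SE replicates. Replicates of a group took both signs in 3 of 4 groups, and only male IS21SE was negative throughout. The mean in female IS21SE was -0.26 ± 0.46 (SD, n = 3), with an adjusted p of 0.999. Here the 2 probes agreed closely, at -0.26 and -0.27 in female IS21SE and at 0.15 and 0.12 in male IS21FE. The wide scatter of PSMA4 was thus seen by both probes.

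PSMA8, the alpha subunit that in mammals belongs to the proteasome of the testis, had the most negative mean ratio of the core genes. Its ratios were -0.083, -0.33 and 0.35 in female IS21FE, -1.73 and -0.87 in the 2 measured male IS21FE replicates, 0.55, 0.30 and 0.047 in female IS21SE and -1.14 and 0.17 in the 2 measured male IS21SE replicates. Both male IS21FE replicates lay below all 6 female replicates. Of the male values only the -1.73 averaged 2 arrays, -0.99 and -2.46, treated RNA in Cy5 first. The male values of -0.87, -1.14 and 0.17 each came from 1 array with control RNA in Cy5, so any dye effect stays in them. The male IS21FE mean of -1.30 ± 0.61 (SD, n = 2), a 2.46-fold difference, had an unadjusted p of 0.00541 and an adjusted p of 0.395, and the male minus female difference in IS21FE was -1.28 (adjusted p = 0.734). The gene rests on 1 probe with a value on 14 of 24 arrays. The remaining alpha subunit, PSMA6, had mean ratios from -0.040 to 0.076 over the 4 groups.

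Among the constitutive beta subunits group means were small. PSMB6, which carries the caspase-like catalytic site, had ratios of 0.00081, 0.027 and -0.062 in the female IS21FE replicates, -0.13, -0.10 and -0.037 in the male IS21FE replicates, -0.044, 0.042 and -0.017 in the female IS21SE replicates and -0.068, 0.24 and 0.091 in the male IS21SE replicates. PSMB7, which carries the trypsin-like site, had ratios of 0.033, 0.0085 and 0.084 in the female IS21FE replicates, 0.079, -0.021 and 0.10 in the male IS21FE replicates, 0.13, 0.034 and 0.014 in the female IS21SE replicates and -0.016, -0.039 and 0.099 in the male IS21SE replicates. Apart from a single male IS21SE replicate of PSMB6, at 0.24, all of these values lay close to 0, and the group means ran from -0.089 to 0.086 for PSMB6 and from 0.015 to 0.060 for PSMB7. The 95% interval of PSMB7 was -0.14 to 0.23 in female IS21FE and -0.13 to 0.23 in male IS21FE. Its small ratios were averages of opposed arrays, since the 2 arrays had opposite signs in 12 of 12 replicates, with means of -0.086 and 0.17 on the 2 orientations in female IS21FE and -0.14 and 0.24 in male IS21FE, treated RNA in Cy5 first. PSMB4, a beta subunit without catalytic activity, had group means from -0.055 to 0.065; it was positive in all 6 female replicates and negative in 5 of 6 male replicates, and its arrays had opposite signs in 6 of 12 replicates.

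PSMB8 and PSMB9, which replace catalytic beta subunits in the immunoproteasome of immune and interferon-exposed cells, varied far more. PSMB8 had ratios of 1.12, -0.14 and -0.64 in the female IS21FE replicates, 0.023, 1.13 and 0.15 in the male IS21FE replicates, 0.41, 0.40 and 0.56 in the female IS21SE replicates and 1.33, -0.35 and 0.34 in the male IS21SE replicates. Female IS21SE was the group in which its 3 replicates lay close together, with a mean of 0.46 ± 0.086 (SD, n = 3) and an adjusted p of 0.999. The arrays behind them did not: they were 0.22 and 0.61 in replicate 1 and -0.14 and 0.95 in replicate 2, treated RNA in Cy5 first. Replicate 3 rested on 1 array, with treated RNA in Cy5. In male IS21FE the orientations gave -0.57 and 1.44. In female IS21FE and male IS21SE the replicates took both signs. The interval in female IS21SE, -0.37 to 1.29, was set by the spread shared with the other groups. PSMB9 had ratios of -0.65, 0.22 and -0.43 in the female IS21FE replicates, 0.046, -0.53 and -0.22 in the male IS21FE replicates, -0.21, 0.56 and -0.030 in the female IS21SE replicates and -0.23, 0.19 and 0.66 in the male IS21SE replicates. Every group of PSMB9 held replicates of both signs, and group means ran from -0.29 to 0.20. PSMB11, the catalytic subunit of the thymus proteasome, had a value on 12 of 24 arrays and replicate ratios from -1.31 to 1.74, with both ends in male IS21FE.

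In the ATPase ring, whose subunits unfold substrates, no gene passed the test and mean ratios were small. Of 5 ATPase genes 1 was positive in female IS21FE, 0 in male IS21FE, 4 in female IS21SE and 2 in male IS21SE. PSMC5 had the mean ratio farthest from 0, with -0.23 ± 0.46 (SD, n = 3) in female IS21FE and -0.25 ± 0.079 (SD, n = 3) in male IS21FE. Its replicates were -0.77, -0.0055 and 0.071 in female IS21FE, where 1 replicate stood apart, and -0.28, -0.15 and -0.30 in male IS21FE, all negative. The -0.77 of PSMC5 averaged -1.60 on the array with control RNA in Cy5 and 0.070 on its partner. The gene's mean in female IS21FE thus leaned on 1 array. The mean of PSMC5 over both sexes in IS21FE, which includes that array, was -0.24 (unadjusted p = 0.0435, adjusted p = 0.611). PSMC3 was read by 7 probes, whose group means lay between -0.18 and 0.26, and PSMC6 by 5 probes between -0.16 and 0.17. For PSMC2 1 of 4 probes stood apart, at -0.35, -0.39 and -0.32 in female IS21FE, male IS21FE and female IS21SE, where the others ran from -0.089 to 0.20.

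Among the 9 non-ATPase subunits, which form the lid and the ubiquitin-receiving part of the regulatory particle, 3 mean ratios were positive in female IS21FE, 0 in male IS21FE, 5 in female IS21SE and 3 in male IS21SE. PSMD11, a lid subunit that bridges the regulatory particle and the core, had ratios of -0.80, -0.063 and -0.32 in the female IS21FE replicates, -0.083, 0.0073 and -0.25 in the male IS21FE replicates, -0.12, 0.34 and -0.033 in the female IS21SE replicates and -0.011, -0.022 and 0.032 in the male IS21SE replicates. All 3 female IS21FE replicates were negative, 1 of them far below the others, and the replicates of the other groups ran from -0.25 to 0.34. The -0.80 of replicate 1 averaged -1.36 on the array with control RNA in Cy5 and -0.24 on its partner. That array, on which PSMC5 had -1.60, had the highest share of blank values of all arrays, 27.5%. The female IS21FE mean of -0.39 ± 0.37 (SD, n = 3) had an unadjusted p of 0.0220 and an adjusted p of 0.618. Its 3 probes gave -0.42, -0.68 and -0.079 in that group, all negative but of unequal size. The ratio was -0.21 on arrays with treated RNA in Cy5 and -0.57 on the others.

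PSMD13, also of the lid, had ratios of -0.035, 0.051 and 0.12 in the female IS21FE replicates, -0.14, -0.14 and 0.045 in the male IS21FE replicates, 0.19, 0.073 and -0.068 in the female IS21SE replicates and 0.15, 0.20 and 0.17 in the male IS21SE replicates. The 3 male IS21SE replicates were positive and close together, with a mean of 0.17 ± 0.027 (SD, n = 3) and an adjusted p of 0.503; the gene's 2 probes gave 0.14 and 0.21 there. The IS21FE minus IS21SE difference in males was -0.25, with an adjusted p of 0.667. PSMD4, the ubiquitin receptor, scattered most among the regulatory genes, and its values are given in full after they were seen: -0.64, -0.17 and 0.15 in the female IS21FE replicates, -1.59, 0.88 and -0.76 in the male IS21FE replicates, -1.22, 0.58 and -0.094 in the female IS21SE replicates and -1.002, -0.23 and 0.52 in the male IS21SE replicates. In 4 of 4 groups the replicates took both signs. One of its 3 probes gave -0.73, -1.01, 0.14 and -0.41 in the female and male IS21FE and the female and male IS21SE groups, where the others ran from -0.55 to 0.070. The deubiquitinase PSMD14, which removes ubiquitin chains during degradation, had means from -0.15 to 0.082, and PSMD6 was negative in 9 of 12 replicates at group means no farther from 0 than -0.089.

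In male IS21FE all 14 subunits of the regulatory particle, the ATPases and the non-ATPase subunits together, had negative mean ratios, with a median of -0.077 and a range from -0.49 to -0.015. The corresponding count of negative means was 10 of 14 in female IS21FE, 5 in female IS21SE and 9 in male IS21SE. These 14 are a part of the 17 genes named for the particle, and serve again in a comparison added after the data were seen. They leave out the base chaperones PSMD5, PSMD9 and PSMD10, which were positive in male IS21FE, at 0.072, 0.019 and 0.11. Of all genes tested, 6066 of 11418 were negative in male IS21FE. None of the 14 passed the test. On arrays with control RNA in Cy5, PSMC1, PSMD6 and PSMD12 were positive in male IS21FE, at 0.10, 0.064 and 0.30, and the others negative. On arrays with treated RNA in Cy5, PSMD3 and PSMD13 were positive, at 0.024 and 0.040, and the others negative. The median over all 36 genes, a wider set, was -0.0092 on arrays with control RNA in Cy5. The 14 genes share 3 pairs of pools and 6 arrays, so their signs are not independent of each other.

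The base chaperones PSMD5, PSMD9 and PSMD10, which help assemble the ATPase ring and then leave it, were positive on average in female IS21FE, male IS21FE and female IS21SE, 3 of 3 in each. In male IS21SE 1 of 3 was positive. PSMD9 was positive in all 3 female IS21FE replicates (mean 0.14 ± 0.046 (SD, n = 3)) and negative in all 3 male IS21SE replicates (mean -0.091 ± 0.073 (SD, n = 3)), where the orientations gave -0.29 and 0.11. PSMD5 had 0.12 in female IS21SE and -0.22 in male IS21SE, with a male minus female difference of -0.34 (adjusted p = 0.771).

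Of the activators, PSME1 and PSME2, which form the interferon-inducible cap, had mean ratios from -0.14 to 0.12 over the 4 groups. PSME4, an activator known from sperm development and DNA repair, was positive in 10 of 12 replicates with means from 0.035 to 0.17. PSME3, the nuclear activator, had the most extreme ratios of the family, and its values are listed because of that, after they were seen. They were 0.31 and -0.26 in 2 female IS21FE replicates, -2.67 and -1.50 in 2 male IS21FE replicates, -1.72 and 4.13 in 2 female IS21SE replicates and -2.04, -0.13 and -1.78 in 3 male IS21SE replicates. The 5 male values were all negative, and the female values took both signs over a span that exceeded any other gene of the family. Every female value, and the male values of -2.67 and -1.78, came from 1 array with treated RNA in Cy5, so any dye effect stays in them. The male value of -0.13 averaged -1.19 and 0.94, treated RNA in Cy5 first. The interval in male IS21FE was -5.04 to 0.87 (adjusted p = 0.798), and the single probe had a value on 12 of 24 arrays. The inhibitor PSMF1 had means from -0.064 to 0.15.

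The core chaperones PSMG3 and PSMG4, which help assemble the alpha rings, had some of the smallest p-values of the family. PSMG4 had ratios of -0.047, -0.058 and 0.070 in the female IS21FE replicates, 0.23, 0.44 and 0.22 in the male IS21FE replicates, 0.23, 0.018 and 0.030 in the female IS21SE replicates and 0.25, 0.35 and 0.42 in the male IS21SE replicates. All 6 male replicates and all 3 female IS21SE replicates were positive, while female IS21FE lay around 0, and every male replicate was above every female IS21FE replicate. The mean was 0.29 ± 0.12 (SD, n = 3) in male IS21FE (unadjusted p = 0.00975, adjusted p = 0.436) and 0.34 ± 0.082 (SD, n = 3) in male IS21SE, a 1.27-fold difference (unadjusted p = 0.00434, adjusted p = 0.284). In both male groups the sign was the same on either dye orientation, at 0.15 and 0.44 in IS21FE and at 0.28 and 0.40 in IS21SE, treated RNA in Cy5 first. In female IS21FE the orientations gave -0.30 and 0.28, and in female IS21SE they gave -0.098 and 0.28. The arrays of a replicate had opposite signs in 3 of 3 replicates in both female groups. The positive replicates of female IS21SE were thus averages of opposed arrays. The male minus female difference of 0.31 in IS21FE had an unadjusted p of 0.0405 and an adjusted p of 0.762.

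PSMG3 had ratios of 0.26, 0.20 and 0.30 in the female IS21FE replicates, 0.092, 0.32 and 0.034 in the male IS21FE replicates, 0.17, 0.096 and 0.064 in the female IS21SE replicates and -0.35, 0.11 and 0.075 in the male IS21SE replicates. A single male IS21SE replicate was negative and the other 11 were positive. The female IS21FE mean was 0.25 ± 0.048 (SD, n = 3), with an interval of 0.0064 to 0.50, an unadjusted p of 0.0453 and an adjusted p of 0.693. As means over the replicates both orientations gave the same sign there, 0.24 and 0.27. In replicate 2 of that group the 2 arrays had opposite signs, -0.088 and 0.50, treated RNA in Cy5 first. Each of these chaperones was read by 1 probe.

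The second question set the core particle against the regulatory particle. The mean over 10 core genes minus the mean over 17 regulatory genes, all measured in every replicate, was 0.26, 0.19 and -0.17 in female IS21FE, with a mean of 0.097 ± 0.23 (SD, n = 3). In male IS21FE it was 0.14, 0.16 and 0.080, with a mean of 0.13 ± 0.043 (SD, n = 3). Both IS21FE means were positive, with 1 negative replicate among the females. In female IS21SE it was 0.058, 0.050 and 0.13, with a mean of 0.079 ± 0.043 (SD, n = 3). Replicates of male IS21SE gave 0.13, 0.063 and 0.036, with a mean of 0.076 ± 0.048 (SD, n = 3). The core stood above the regulatory particle in 11 of 12 replicates, and the exception was replicate 3 of female IS21FE. Without its replicate 1 the female IS21FE mean was 0.014, and without replicate 3 it was 0.23. With constitutive subunits alone, as described next, the core stood above in 8 of 12 replicates.

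The size of that difference depended on which genes and arrays entered. In a comparison added after the data were seen, with the 8 constitutive core genes against the 14 regulatory subunits, the female IS21FE replicates gave 0.30, 0.21 and -0.043. Female IS21SE gave 0.071, -0.025 and 0.079, with a mean of 0.042 where the full comparison had 0.079. Male IS21SE gave -0.022, 0.067 and -0.071, and its mean of -0.0086 lay on the other side of 0. The male IS21FE replicates stayed positive in that comparison, at 0.19, 0.12 and 0.12. These values include PSMA5 at 1.30 in replicate 2, where the group mean of the gene came from a single probe. They also include PSMD4, at -1.59 in replicate 1 and 0.88 in replicate 2. How far the differences rest on these genes was not tested. On arrays with control RNA in Cy5 alone the core minus regulatory mean was -0.034 in female IS21SE and -0.030 in male IS21SE, and on arrays with treated RNA in Cy5 alone it was 0.0046 in male IS21FE. By genes rather than means, the median of the core genes was 0.050, -0.039, 0.088 and -0.0040 and that of the regulatory genes -0.010, -0.076, 0.025 and -0.080 in the female and male IS21FE and the female and male IS21SE groups. No p is given for these scores.

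**Figure D3:**
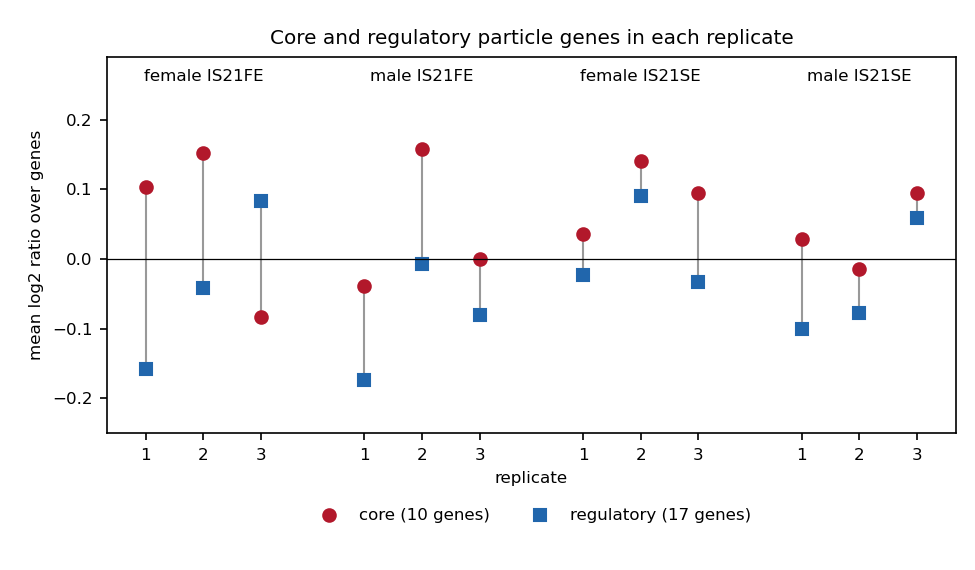
Mean log2 ratio (vertical axis) over 10 core genes (red circles) and 17 regulatory particle genes (blue squares) in each replicate (horizontal axis), joined by a line. The circle lies above the square in 11 of 12 replicates, and the order is turned in replicate 3 of female IS21FE.

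The comparisons that join the sexes, the mean of both and male minus female, treat 6 pools of a strategy as independent although they came from 3 sows, so their p-values are less reliable. Averaged over both sexes, 0 of 36 genes passed the adjusted threshold for IS21FE, where 0% of 11300 genes did, and 0 of 36 for IS21SE, where 0% of 11335 genes did. At an unadjusted p under 0.05 there were 4 for IS21FE, PSMA8, PSMG3, PSMD11 and PSMC5, against 8.08% of all genes, and 1 for IS21SE, PSMG4, against 7.69%, so neither share was far from the background. PSMG4 averaged 0.22 in IS21SE (adjusted p = 0.580), and PSMG3 averaged 0.20 in IS21FE (adjusted p = 0.577).

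Set against each other, the strategies gave no proteasome gene past the adjusted threshold. For IS21FE minus IS21SE in females 0 of 36 passed, where 0% of 11494 genes did, and in males 0 of 36 passed, where 0.00891% of 11220 genes did. The unadjusted counts were 1 in females, against 2.56% of all genes, and 0 in males, against 8.22%. Every replicate of one strategy had one sign and every replicate of the other the opposite sign in 0 of 34 proteasome genes with all values in females, against 1.58% of all genes, and in 0 of 33 in males, against 3.23%. The gene past the unadjusted threshold in females was PSMD11, with a difference of -0.46 and an interval of -0.91 to -0.0021. This difference includes the -1.36 of PSMD11 on 1 array of female IS21FE replicate 1. The 95% interval of the difference between strategies stayed within -1 and 1 for 30 of 36 genes in females and for 29 in males, and within 0.5 of 0 for 23 and 18.

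Sexes were compared within each strategy. For male minus female 0 of 36 genes passed in IS21FE, where 0% of all genes did, and 0 of 36 in IS21SE, where 0% did. At an unadjusted p under 0.05 there were 3 in IS21FE, PSMA8, PSMA3 and PSMG4, against 6.21% of all genes, and 0 in IS21SE, against 7.18%. With the replicate number as a block the IS21FE count was 1. All replicates of one sex had one sign and all of the other the opposite sign in 1 of 34 genes in IS21FE (PSMB4), against 3.28% of all genes, and in 2 of 33 in IS21SE (PSMA1 and PSMC6), against 4.51%, so these counts were near the background. The median difference over the family was -0.070 in IS21FE and -0.055 in IS21SE, beside -0.036 and -0.026 over all genes. Sex cannot be told apart from the scale of the arrays in these contrasts.

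The 2 arrays of a replicate measured the same pools with the dyes exchanged, so they show how well a ratio repeats. After the turn, the signs of a proteasome gene on the 2 arrays were equal in 48.5% of pairs in female IS21FE, 51.0% in male IS21FE, 39.2% in female IS21SE and 44.6% in male IS21SE. Over all genes the shares were 47.8%, 52.4%, 45.4% and 54.9%. In each sex fewer pairs agreed than disagreed, 87 of 198 in females and 97 of 203 in males. Across genes within a replicate, Spearman's rho between the 2 arrays ran from -0.34 to 0.32 for the proteasome genes and from -0.23 to 0.18 for all genes, which are not independent of each other.

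Group means by orientation showed the same. Treated RNA in Cy5 and control RNA in Cy5 gave the same sign for 11 of 35 genes in female IS21FE, 18 of 36 in male IS21FE, 12 of 35 in female IS21SE and 15 of 35 in male IS21SE. The median over the family was -0.089 and -0.0092 in male IS21FE and -0.072 and 0.11 in male IS21SE, so in the latter group it changed side with the dye. PSMD1, a scaffold of the regulatory particle, had 0.50 and -0.57 in female IS21FE, and the chaperone PSMD5 had -0.59 and 0.73 in male IS21FE. Taken without the turn, PSMD1 passed the adjusted threshold in female IS21FE and PSMD5, PSME1 and PSMG4 in the IS21FE mean of both sexes, in fits that passed 308 and 323 of all genes. In female IS21SE 119 of all genes passed without the turn, in male IS21FE 7 and in male IS21SE 0, none of them a proteasome gene. Ratios without the turn hold any dye effect in full, and the table does not state which way its columns run.

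**Figure D4:**
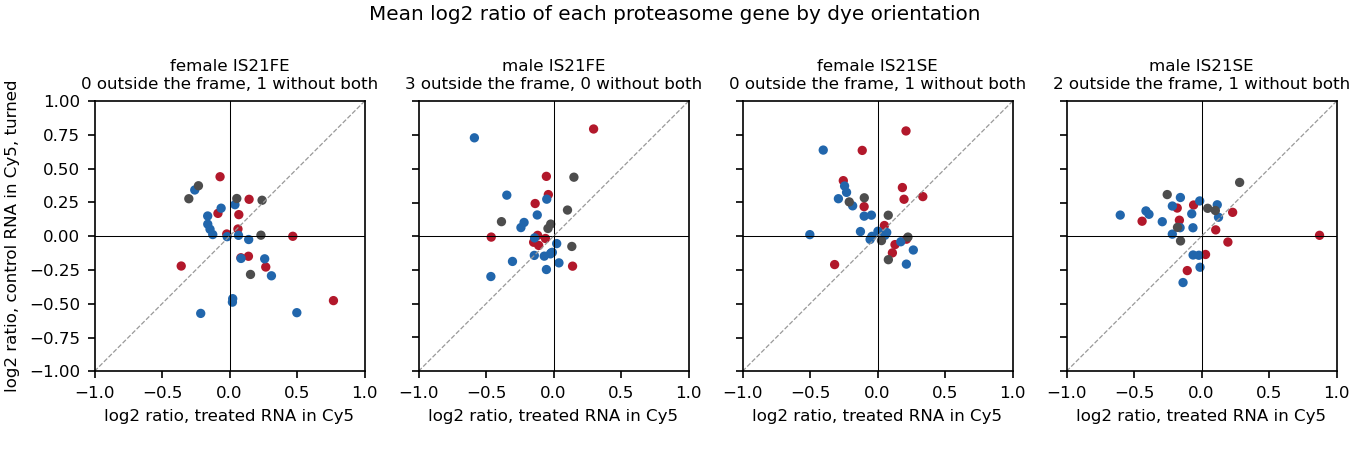
Mean log2 ratio of each proteasome gene over arrays with treated RNA in Cy5 (horizontal axis) and over arrays with control RNA in Cy5 after the turn (vertical axis), with core genes in red, regulatory genes in blue and others in grey. Points do not follow the dashed line of equality, and many lie in the quadrants where the orientations give opposite signs.

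As a whole, the genes of the family hardly varied together. After group means were removed, the mean Pearson correlation over the 12 replicates was -0.046 between core genes, 0.10 between regulatory genes, -0.00024 between core and regulatory genes, 0.035 over all 33 complete genes and 0.012 over 9495 genes of the array. These are descriptions over replicates that share the scale of their arrays. Of 528 pairs, looked at after the values were seen, PSMA4 and PSMD3 had the highest correlation, with r = 0.96 and a Spearman's rho of 0.89. It was 0.99 over the 6 female and 0.97 over the 6 male replicates, and 0.92 without the 2 replicates farthest from the median. PSMD4 went with both, at r = 0.83 each, and PSMD4 and PSMF1 had the lowest value, -0.88. By array the correlation of PSMA4 and PSMD3 was 0.70 over 12 arrays with treated RNA in Cy5 and 0.51 over 11 arrays with control RNA in Cy5.

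PSMD3, a lid subunit, shows the pattern in its values beside those given for PSMA4, and was named after they were seen. Its ratios were -0.073, 0.22 and 0.025 in the female IS21FE replicates, -0.59, 0.44 and 0.11 in the male IS21FE replicates, -0.33, 0.24 and -0.14 in the female IS21SE replicates and 0.048, -0.10 and 0.20 in the male IS21SE replicates. For both genes the 2 lowest values were in replicate 1 of male IS21FE and replicate 1 of female IS21SE, and the highest was in replicate 2 of male IS21FE. The group means of PSMD3 stayed between -0.075 and 0.059, a narrower range than that of its replicates.

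Genes that work with the proteasome gave a similar picture, and none of the listed genes passed the adjusted threshold in any of the 4 groups. Of the proteasome partners, 8 genes were on the array, and 3, 1, 5 and 3 were positive in female then male IS21FE and female then male IS21SE, with medians of -0.042, -0.056, 0.024 and -0.20. The smallest p in these groups belonged to KIAA0368, which tethers proteasomes (0.33), NGLY1, the deglycosylase that activates the transcription factor NFE2L1 (-0.52), the stress factor NFE2L2 (-0.25) and the proteasome-bound thioredoxin TXNL1 (-0.22). NGLY1 was negative in 4 of 4 group means, and NFE2L1, which drives transcription of proteasome genes, had -0.21, -0.51, 0.063 and -0.49, named after its values were seen. The adjusted p of NGLY1 in male IS21FE was 0.464.

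Of 11 genes that supply ubiquitin, 4, 4, 4 and 6 were positive, with medians from -0.052 to 0.0013. The smallest p belonged to the activating enzyme UBA6 in both female groups (0.65 in IS21FE and 0.50 in IS21SE), to the conjugating enzyme UBE2D1 in male IS21FE (-0.25) and to the activating enzyme UBA1 in male IS21SE (0.26). Of 8 shuttle and unfolding genes, 4, 4, 5 and 3 were positive. The unfoldase VCP had the smallest p in both IS21FE groups (-0.16 in females and -0.18 in males), the shuttle RAD23B in female IS21SE (0.38) and ZFAND5 in male IS21SE (-0.11).

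Of 9 genes of antigen processing, which uses the peptides of the immunoproteasome, 5, 3, 6 and 5 were positive. The smallest p belonged to the peptide transporter TAP1 in female IS21FE (-0.27), the regulator CIITA in male IS21FE (-0.89), the peptide loader TAPBP in female IS21SE (0.89) and the class I gene SLA-3 in male IS21SE (-0.89, unadjusted p = 0.00218, adjusted p = 0.251). Markers of cells that could shift within a pool were summed up in the same way. The medians over 8 immune markers, of which 7 were tested outside female IS21FE, were -0.052, -0.12, -0.074 and 0.049. In the same order of groups the means of PSMB8 were 0.11, 0.43, 0.46 and 0.44, and those of PSMB9 were -0.29, -0.23, 0.11 and 0.20. Over 7 erythroid markers the medians ran from -0.15 to 0.14, over 7 liver markers from 0.0097 to 0.30, over 8 skeletal muscle markers from -0.19 to 0.031 and over 7 neural markers from -0.049 to 0.039. None of these markers passed the adjusted threshold in the 4 groups, and their part in the ratios of the proteasome genes was not tested.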

How the data were processed

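Two-colour arrays measured RNA of treated against control embryo pools on 24 arrays. Per the labels' protocols, 200 ng of column-purified RNA with spike-ins went into the low-input labelling of Agilent. The deposited table holds log ratios for 43749 probes, taken here as log2 since they run from -9.34 to 9.85; the sources used here give no log base, normalization, filter or genome build, and no columns of other series were present. No signal intensities were used. Array medians lay within 0.05 of 0, and 31722 to 39435 probes had a value on an array.

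Symbols came from the platform annotation: 18109 probes had 1 symbol, 0 several and 25640 none. Reference tables gave a newer name to 116 probes through their accession and to 241 through a synonym, and all 37 matched symbols were found there. Arrays with control RNA in Cy5 were turned by -1, and the measured arrays of a replicate and probes of a gene were averaged. Comparisons were tested with limma 3.58.1 in R 4.3.3 on 4 group means with eBayes, in genes with at least 2 measured replicates per group, with Benjamini-Hochberg adjustment over all genes tested; scripts were tested on simulated data. Replicate numbers were not treated as pairing the samples: same-numbered female and male pools correlated at 0.0075 to 0.082, under the limit of 0.1. This limit cannot show that the numbers do not pair pools, since the 2 arrays of a replicate correlated at only 0.074 in the fit with a dye term. Female and male pools of a strategy came from the same 3 sows in an order the labels do not give, so no sow could be fitted as a block. P-values measure the spread between these pools.

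Values in every replicate are given for genes past the threshold, the 3 with the smallest p in each group, those with 1 sign in 12 replicates, and catalytic or inducible beta subunits; pathway lists are described by counts and the gene with the smallest p. Members and lists were chosen with earlier results of these data known. Alternatives varied the turn, dye orientation, arrays, probes, scaling, spread, weights, block and replicates. No promoter or protein sequences were used, so the planned motif count was not run.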

Additional observations from a re-analysis of the deposited data

Results flagged for a closer look

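In 3 genes every replicate of one sex had one sign and every replicate of the other sex the opposite sign under the same strategy: 1 of 34 proteasome genes with all values in IS21FE, where 3.28% of all genes did, and 2 of 33 in IS21SE, where 4.51% did. These counts are near the background. PSMA1, an alpha subunit, was 0.132 higher in female than in male IS21SE, with female ratios of 0.050, 0.14 and 0.046 and male ratios of -0.057, -0.092 and -0.0083. On arrays with treated RNA in Cy5 the order was turned, with a mean of -0.25 in females and 0.030 in males, against 0.41 and -0.14 on the others. PSMB4, a beta subunit, was 0.114 higher in female than in male IS21FE, with 0.12, 0.015 and 0.034 in females and -0.063, -0.098 and -0.0057 in males. Its female means were 0.063 and 0.054 and its male means -0.12 and 0.0067, treated RNA in Cy5 first. PSMC6, an ATPase, was 0.176 higher in female than in male IS21SE, with 0.022, 0.064 and 0.080 in females and -0.12, -0.19 and -0.053 in males. Its female mean changed sign with the dye, -0.045 and 0.16, and its male means were -0.011 and -0.23. None of these differences passed limma's test of the difference itself: the adjusted p was 0.853 for PSMA1, 0.915 for PSMB4 and 0.830 for PSMC6. Groups of 3 replicates were not examined for single outlying samples.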

How the results depend on the processing

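Over 27 alternative settings and 198 fits, 0 of 36 proteasome genes passed the adjusted threshold in all but 2 fits, both without the turn of the arrays with control RNA in Cy5: 1 gene (PSMD1) in female IS21FE and 3 genes (PSMD5, PSME1 and PSMG4) in the IS21FE mean of sexes. With the turn, the lowest adjusted p of a member was 0.0942, on arrays with control RNA in Cy5 only. Leaving out each replicate in turn gave 0 members throughout. The medians over members then ran from 0.0139 to 0.0445 in female IS21FE, -0.0678 to -0.0456 in male IS21FE, 0.0318 to 0.0684 in female IS21SE and -0.0325 to 0.0134 in male IS21SE, where the positive value came without replicate 1. Core minus regulatory ran from 0.0144 to 0.228, 0.108 to 0.150, 0.0541 to 0.0933 and 0.0498 to 0.0966 in the same order. Without the turn, core minus regulatory in male IS21FE was -0.116 and the median in female IS21SE -0.0459. On arrays with treated RNA in Cy5 only, core minus regulatory was 0.00463 in male IS21FE and 0.200 in male IS21SE. On those with control RNA in Cy5 only it was 0.0796 in male IS21FE, -0.0341 in female IS21SE and -0.0300 in male IS21SE, and the medians were -0.00624 in male IS21FE, over the 35 members tested, and 0.111 in male IS21SE. With both arrays of a replicate needed it was 0.0671 in male IS21FE and 0.0252 in female IS21SE, and with the median over probes 0.0717 in male IS21FE. With constitutive subunits only, added after seeing the data, it was -0.00861 in male IS21SE. Ratios of the named genes moved by over 1 SD in 84 values and by less in 629, mostly with the turn or the orientation in the former, and the causes were not tested. The fit with the replicate number as a replicate block gave 0 members in all 10 comparisons. At an unadjusted p under 0.05 it gave 1 in female IS21FE (2 without it) and 1 for male minus female in IS21FE (3 without it). Of the same-numbered pairs 4 of 6 correlated best with their own number, so whether the numbers pair pools is not known here. Signal over background was not used, so which ratios rest on dim spots is not known here.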
